A study of Mus musculus with 2 samples.

Results

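*Rprml*, *Batf3*, *Shisa8*, *Wnt16*, *Prrxl1*, *Creb5* and *Foxo1* are 7 genes that had stood out as marks of the basal branch of vomeronasal sensory neurons (VSNs) in earlier work on the same libraries, and all 7 were found among the 32285 genes counted. The libraries are 2 samples of whole vomeronasal organ (VNO) from wild-type C57BL/6J males at P60, drawn from 5 mice in total, with no transgene, deletion or treatment in either sample. Each is a droplet-based single-cell library, in which a unique molecular identifier (UMI) marks a captured mRNA molecule. Nothing ties a library to given mice, so a p-value here measures only the spread between these 2 libraries, which may be technical. The 7 genes were followed in basal neurons (*Tfap2e* and *Gnao1*) and apical neurons (*Meis2* and *Gnai2*) at the immature (*Gap43*) and mature (*Omp*) stages, in their precursors, and in the non-neuronal cells of the same organ. Because immature basal against immature apical neurons is taken as the contrast that chose the genes, their values in it are given as a description with no test.

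The VNO detects pheromones. Its apical VSNs signal through the G protein alpha subunit encoded by *Gnai2* and use V1R receptors, whereas basal VSNs signal through the subunit encoded by *Gnao1* and use V2R receptors. Both arise from a common pool of dividing cells through *Neurog1*+ precursors, and the transcription factor *Tfap2e* acts in the basal type. Of the 7 genes, 4 encode transcription factors: *Prrxl1* (also called *Drgx*), a paired-like homeobox factor needed for the wiring of pain-sensing circuits, *Batf3*, a basic leucine zipper factor best known for the development of cross-presenting dendritic cells, *Creb5*, a leucine zipper factor of the ATF2 family, and *Foxo1*, a forkhead factor held out of the nucleus by insulin and AKT signalling. *Shisa8* encodes an auxiliary subunit of AMPA-type glutamate receptors, *Wnt16* a secreted Wnt ligand, and *Rprml* a membrane protein related to Reprimo, a p53-induced cell cycle inhibitor.

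The libraries held 108005626 and 95442231 UMIs. After the filters on genes per cell and mitochondrial share, 10592 of 24084 barcodes stayed as cells, 5694 in library 1 and 4898 in library 2, with medians of 6668 and 6650.5 UMIs, and 33 barcodes occurred in both libraries, 3 of them kept in both. A cluster of 109 cells led by *Myh11* came from library 1 alone and holds no neurons of the groups below. Neuronal lineage clusters held 1503 cells. From these, the marker UMIs gave 120 immature basal neurons (64 in library 1, 56 in library 2), 318 immature apical (175 and 143), 88 mature basal (43 and 45) and 561 mature apical neurons (313 and 248), with median depths of 9000.5, 9081, 17199 and 13570 UMIs. The labels of the mature groups held on genes that the gates did not use, and those of the immature groups less clearly. The axon guidance receptor gene *Robo2*, which marks basal VSNs, had 64 and 76 UMIs in mature basal against 8 and 10 in mature apical neurons, and *Nrp2*, which marks apical VSNs, had 10 and 7 against 1162 and 894. *Robo2* was also among the fixed markers that named the mature basal cluster, so it is no separate check of the mature labels. In immature cells *Robo2* had 56 and 65 UMIs in basal against 94 and 79 in apical neurons (log2 difference 0.89, edgeR adjusted p = 0.119) and *Nrp2* 128 and 172 against 1027 and 779 (-1.16, adjusted p = 0.0320).

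Sequences from the 250 bases before the RefSeq start sites are shown for the pair of genes that had no UMI left in mature basal neurons (*Rprml*, *Prrxl1*) and the pair that stayed high there against apical neurons (*Batf3*, *Shisa8*). On mm10 the protein-coding genes lie at chr11:103649570-103650579 (*Rprml*, plus strand, ENSMUSG00000046215), chr14:32599407-32649246 (*Prrxl1*, plus, ENSMUSG00000041730), chr1:191097847-191108945 (*Batf3*, plus, ENSMUSG00000026630), chr15:82206168-82212815 (*Shisa8*, minus, ENSMUSG00000096883), chr6:22288227-22298522 (*Wnt16*, plus, ENSMUSG00000029671), chr6:53287270-53700376 (*Creb5*, plus, ENSMUSG00000053007) and chr3:52268336-52353221 (*Foxo1*, plus, ENSMUSG00000044167). *Foxo1* overlaps the antisense gene *Gm20402*, which had 0 UMIs in the kept cells. The sequences come from RefSeq on GRCm38.p6, the patched form of the same build, in which all 7 genes have a window and *Creb5* has start sites in 2 windows. The windows of *Prrxl1* and *Batf3* lie inside the gene spans given above, so their RefSeq start sites differ from the starts of those spans. Bases in annotated exons were left out, so *Rprml* is shown from chr11:103649259-103649508 (plus strand), *Prrxl1* from chr14:32599733-32599866 (plus strand), *Batf3* from chr1:191098238-191098324 (plus strand) and *Shisa8* from chr15:82212816-82213065 (minus strand). Capitals mark matches to any of 6 motifs searched on both strands over the 250 bases before each start site.
Rprml: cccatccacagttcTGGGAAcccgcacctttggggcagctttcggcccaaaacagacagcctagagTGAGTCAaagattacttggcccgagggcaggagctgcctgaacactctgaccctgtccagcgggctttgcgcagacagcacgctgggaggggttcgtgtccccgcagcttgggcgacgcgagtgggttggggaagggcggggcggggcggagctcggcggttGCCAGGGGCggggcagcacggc
Prrxl1: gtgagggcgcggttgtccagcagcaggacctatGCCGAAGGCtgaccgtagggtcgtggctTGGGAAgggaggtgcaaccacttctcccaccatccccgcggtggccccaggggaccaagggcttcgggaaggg
Batf3: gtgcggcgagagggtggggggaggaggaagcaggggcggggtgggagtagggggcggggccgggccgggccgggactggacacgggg
Shisa8: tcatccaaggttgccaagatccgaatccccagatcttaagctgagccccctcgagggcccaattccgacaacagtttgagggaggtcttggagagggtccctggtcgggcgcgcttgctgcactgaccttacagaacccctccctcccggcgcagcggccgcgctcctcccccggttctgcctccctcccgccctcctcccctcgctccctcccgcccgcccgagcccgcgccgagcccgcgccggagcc

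The AP-2 motif (GCCNNNGGC), the site of the AP-2 factor family to which *Tfap2e* belongs, matched before *Rprml* (from -22 to -14, counted from the start site), *Prrxl1* (from -161 to -153) and *Wnt16* (from -26 to -18), and occurs in 13.7% of 32851 promoter windows. The RBPJ motif (TGGGAA), read by the Notch pathway's DNA-binding factor, matched before *Rprml*, *Prrxl1* and the downstream *Creb5* start, against 21.6% of windows. The AP-1 motif (TGANTCA) matched before *Rprml* and that *Creb5* start (6.75% of windows), the CRE motif (TGACGTCA) before the upstream *Creb5* start (1.55%), and the EBF motif before *Foxo1* (0.779%). The FoxO motif (GTAAACA, 3.17%) matched none of the windows, and none of the 6 matched before *Batf3* or *Shisa8*. The AP-2, AP-1, CRE and EBF motifs read alike on both strands. No match overlapped another. A match is a run of letters, not a measured site.

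In immature neurons, where the genes had stood out, all 7 were higher in CPM in basal than in apical cells with both libraries summed. Among the factors, *Prrxl1* had 72 and 72 UMIs in the basal cells of libraries 1 and 2 (106 and 140 UMIs per 1000000 UMIs of the group, CPM) against 16 and 11 in apical cells (9.23 and 8.67 CPM). *Batf3* had 31 and 30 UMIs in basal cells (45.6 and 58.2 CPM) and 1 and 0 in apical cells, in spite of the larger apical groups. *Foxo1* had 79 and 80 UMIs (116 and 155 CPM) against 63 and 52 (36.4 and 41.0 CPM). For these 3 factors no apical library reached a basal one, from which nothing is read for genes chosen on this contrast. *Creb5* was different in kind: its 50 and 85 UMIs in basal cells (73.5 and 165 CPM) stood beside 128 and 67 in apical cells (73.9 and 52.8 CPM), so in library 1 the levels on the branches were alike and the higher basal level came from library 2.

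*Shisa8* was counted at 137 and 115 UMIs in immature basal cells (201 and 223 CPM) against 28 and 10 in apical cells (16.2 and 7.88 CPM). *Rprml* had 32 UMIs in the basal cells of each library (47.0 and 62.1 CPM) and 1 in the apical cells of each. *Wnt16* was sparse, with 11 basal UMIs in each library (16.2 and 21.3 CPM) and 1 apical UMI in each. The basal and apical libraries did not overlap for any of these 3 genes. Nothing is read from this, since the genes were chosen on this contrast and the share of all genes without overlap is not given. Across all genes tested in this contrast 1.33% were called higher in basal cells and 1.04% lower (2.37% in all, of 11927 genes, edgeR), figures from which nothing can be read for genes chosen on it. The 55 neurons with a stage but no clear identity held the genes too, among them *Shisa8* at 131 CPM and *Rprml* at 40.8 CPM.

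**Figure D1:**
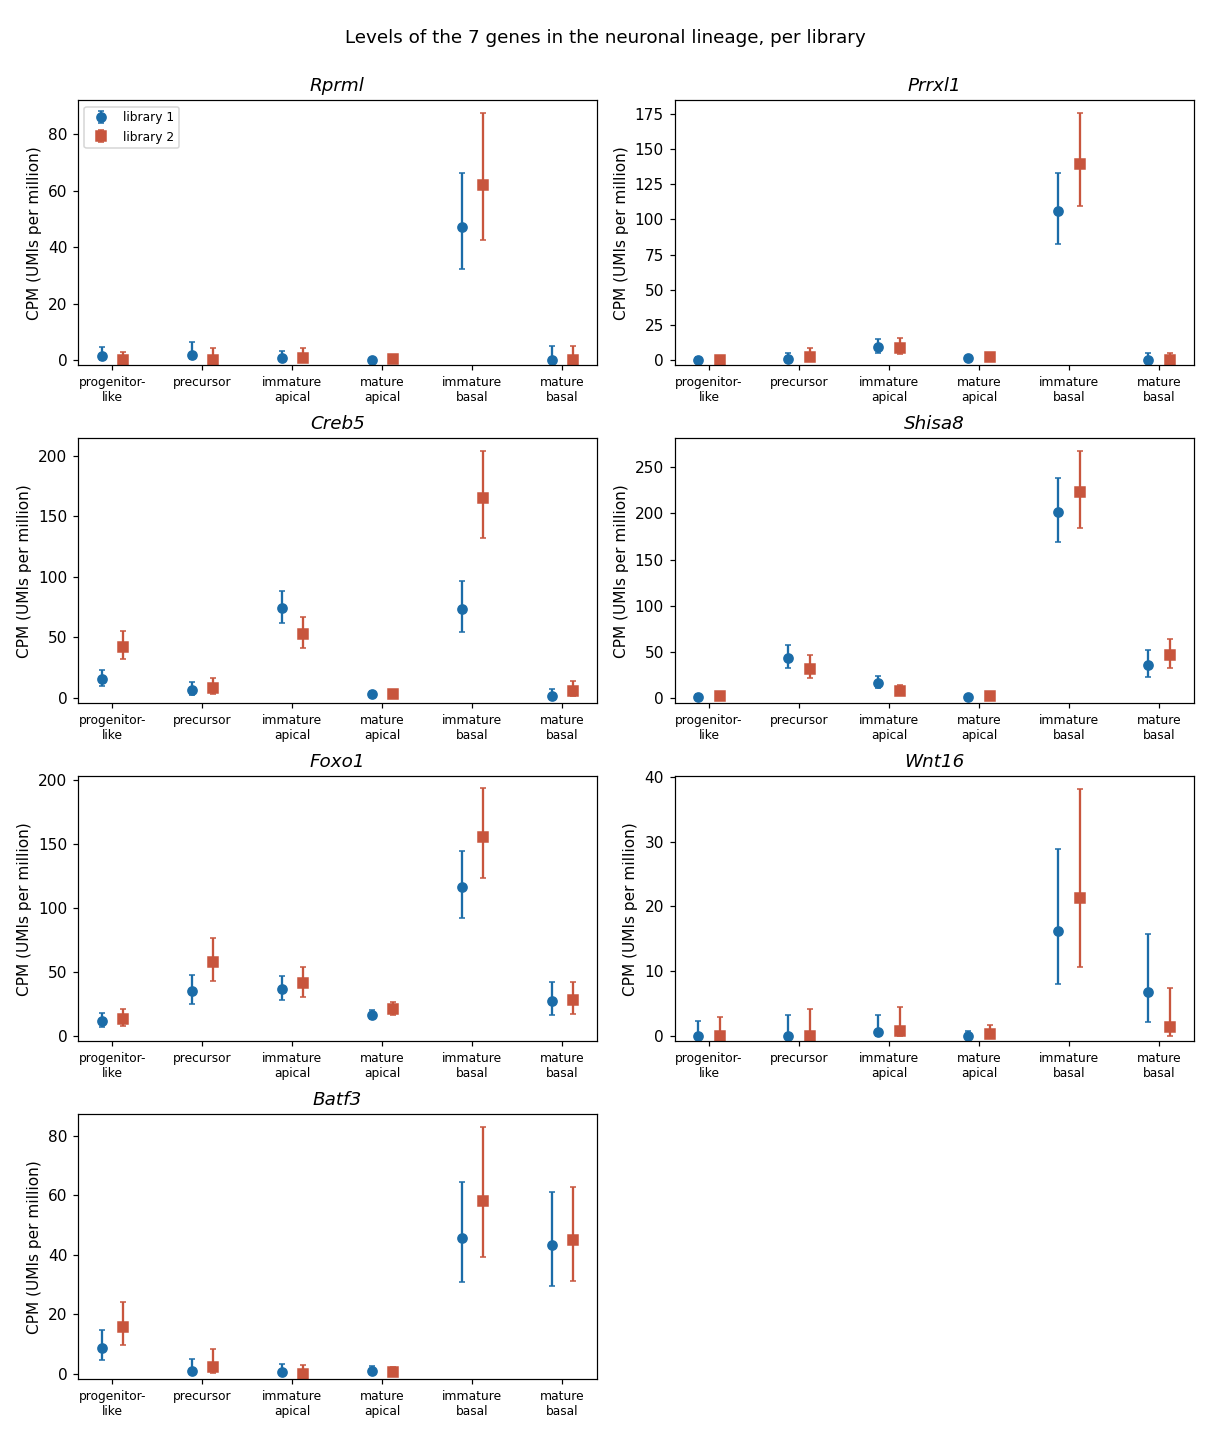
Each panel plots the level of 1 gene in CPM (UMIs per 1000000 UMIs of the group) in 6 groups of the neuronal lineage, with 1 point for each library and bars for the exact Poisson 95% interval, which covers counting error only. *Rprml* and *Prrxl1* stand high in immature basal neurons and are at 0 in mature basal neurons, whereas *Batf3* stays near 44 CPM.

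Earlier in the lineage the genes differed from each other. *Shisa8* was already present in precursors (188 cells gated on *Neurog1* and *Neurod1*), with 49 and 28 UMIs (43.6 and 31.9 CPM), more than in immature apical cells of either library. *Foxo1* was present there as well, at 34.7 and 58.1 CPM. *Rprml*, *Prrxl1* and *Batf3* had 2, 3 and 3 UMIs over all precursors and *Wnt16* had 0, which allows up to 1.60% of precursors with a UMI. *Batf3* and *Creb5* were higher in the progenitor-like cluster of dividing cells (8.81 and 15.6 CPM for *Batf3*, 15.7 and 42.2 CPM for *Creb5*) than in precursors (0.889 and 2.28 CPM, 6.23 and 7.97 CPM). Of the gated cells, 40 immature apical, 3 immature basal and 2 mature apical cells also met the precursor gate. So did 11 of the 55 cells with a stage but no clear identity. The part of these shared cells in the precursor counts was not tested.

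Mature neurons were not part of the immature contrast, though they come from the same 2 libraries, and there *Batf3* and *Shisa8* were higher in basal than in apical cells. *Batf3* had 32 and 34 UMIs in mature basal neurons (43.3 and 45.0 CPM) and 5 and 2 in mature apical neurons (1.12 and 0.612 CPM). That is a log2 fold change of 5.62 ± 0.35 (SE), or 49.2-fold (edgeR adjusted p = 0.000164). *Shisa8* had 26 and 35 UMIs (35.2 and 46.3 CPM) against 2 and 5 (0.448 and 1.53 CPM), a log2 fold change of 5.49 ± 0.45, or 44.9-fold (edgeR adjusted p = 0.000535). In neither gene did a library of one type overlap one of the other. The share of all genes without overlap is not given, so nothing is read from this. Both calls held under all 13 alternatives that gave a test. The size of the difference moved more, from 3.98 to 6.16 on the log2 scale for *Batf3* and from 4.09 to 7.06 for *Shisa8*, the lowest values with the deep unnamed cluster led by *Vmn1r70* counted as neurons, an alternative added after seeing the data. Library 1 alone gave 5.30 for *Batf3* and 6.24 for *Shisa8*, and library 2 alone 6.16 and 4.96. A UMI of *Batf3* was found in 47.7% of mature basal neurons (42 of 88, exact 95% interval 37.0 to 58.6%) and 0.891% of mature apical neurons, and of *Shisa8* in 44.3% and 0.713%. With every cell thinned to 5000 UMIs, which left out 1 mature basal and 9 mature apical cells, the shares were 11.5% and 0.181% for *Batf3* and 21.8% and 0.362% for *Shisa8*.

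The other members did not pass the test between mature types. *Foxo1* had 20 and 21 UMIs in basal cells (27.0 and 27.8 CPM) and 73 and 68 in apical cells (16.3 and 20.8 CPM), a log2 difference of 0.66 ± 0.24 (edgeR adjusted p = 0.149), so the basal libraries lay above the apical ones by less than the fit could call. *Creb5* had 1 and 4 UMIs against 16 and 10, with levels around 3 CPM in both types and a log2 difference of 0.09 ± 0.73 whose sign turned under other settings (adjusted p = 0.961). With the same deep cluster counted as neurons, *Creb5* was called lower in basal cells (log2 fold change -1.78, adjusted p = 0.0414). *Prrxl1*, at 0 against 11 UMIs (all in 2 apical cells), was tested but lay under the limit of 3 UMIs over the basal group (2.01 CPM), so no difference was detectable at this depth. *Rprml* (0 against 1 UMI) and *Wnt16* (6 against 1) were under the filter of 10 UMIs. Without the filter *Wnt16* was called higher in basal cells (4.50, adjusted p = 0.0395), and with a mitochondrial limit of 10%, where it passed the filter, it was not (5.42, adjusted p = 0.0724). Of the 5 members tested 2 were called higher, where 5.20% of all 12604 genes tested were called higher and 3.59% lower (8.79% in all).

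Cells of other types also use *Batf3*, so their markers were counted in mature basal neurons. Of 8 dendritic cell markers, *Cd209a*, *Flt3*, *Ccr7*, *Xcr1* and *Clec9a* were at 0 in both libraries of mature basal neurons, and the list summed to 67.6 and 152 CPM there against 206 and 182 CPM in mature apical neurons. The 5 macrophage markers summed to 13.5 and 42.3 CPM in basal against 77.2 and 198 CPM in apical cells. Of the 5 monocyte markers 4 were at 0 in mature basal neurons, and the fifth, *Plac8*, made the whole of a sum of 342 and 331 CPM, against 90.6 CPM for the list in each apical library. The part of *Plac8*+ cells in the *Batf3* result was not tested. *Wnt16* is also present in fibroblast-like cells, and its 5 UMIs in mature basal neurons of library 1, against 1 in library 2, came with fibroblast markers at 169 and 11.9 CPM. The part of these markers in the *Wnt16* count was not tested.

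From the immature to the mature stage of basal neurons the set divided into genes no longer seen, genes seen at a lower level and *Batf3*. These values use the same immature basal cells in which the genes had stood out, which tilts them towards lower mature levels, so they are given as a description with no test for the members. In this contrast edgeR called 12% of all 10544 genes tested lower in mature cells and 13.7% higher (25.7% in all), and nothing is read from that share for the 7 genes. *Prrxl1* went from 72 and 72 UMIs to 0 and 0, at least 60.1-fold lower against a floor of 3 UMIs over the group. *Rprml* went from 32 and 32 UMIs to 0 and 0, at least 26.7-fold lower. Both passed the filter on low counts only through the immature group. For each, 0 of 88 mature basal neurons had a UMI, which allows up to 3.41% of cells.

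*Creb5* went from 50 and 85 UMIs to 1 and 4, a log2 difference of -5.00 (31.9-fold lower). *Shisa8* went from 137 and 115 UMIs to 26 and 35 (-2.32, 4.98-fold lower) and *Foxo1* from 79 and 80 to 20 and 21 (-2.23, 4.70-fold lower). For these 3 genes no mature library reached an immature one in CPM. Mature basal neurons thus held *Shisa8* well above the mature apical level although below the immature basal one. The share of all genes without overlap between stages is not given. The genes had stood out in these immature cells, so nothing more is read from the lack of overlap. *Wnt16* went from 11 and 11 UMIs to 5 and 1, a log2 difference of -2.10 that was -3.75 in library 2 and -1.20 in library 1. *Batf3* stood at 31 and 30 UMIs in immature and 32 and 34 in mature basal neurons, a log2 difference of -0.16. In thinned cells the *Batf3* difference was -1.18, while the share of cells with a UMI was 33.3% in immature and 47.7% in mature cells before thinning and 25% and 11.5% after it.

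A finer order within basal neurons is given as a description. Of the 120 immature basal cells 19 had at least 1 *Omp* UMI and the others none, and with both libraries summed every member was lower in cells with *Omp*. Library 2 holds 5 of the 19 cells, and in it alone *Batf3* (77.4 CPM with and 55.5 CPM without *Omp*) and *Shisa8* (232 and 222 CPM) were not lower. *Creb5* was at 143 CPM without and 3.91 CPM with *Omp* (1 UMI). In the same order *Prrxl1* was at 149 and 15.7 CPM (4 UMIs) and *Rprml* at 64.9 and 11.7 CPM (3 UMIs). *Foxo1* was at 160 and 35.2 CPM (9 UMIs). *Shisa8* was at 240 and 102 CPM, *Batf3* at 58.5 and 23.5 CPM (6 UMIs) and *Wnt16* at 21.3 and 7.83 CPM (2 UMIs). *Creb5* thus stood at 2.75% of its level in cells without *Omp* once *Omp* was counted, against 42.3% for *Shisa8*. In apical neurons *Creb5* also ran from 65.0 CPM in immature to 3.36 CPM in mature cells and *Foxo1* from 38.3 to 18.2 CPM, values that were not tested.

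**Figure D2:**
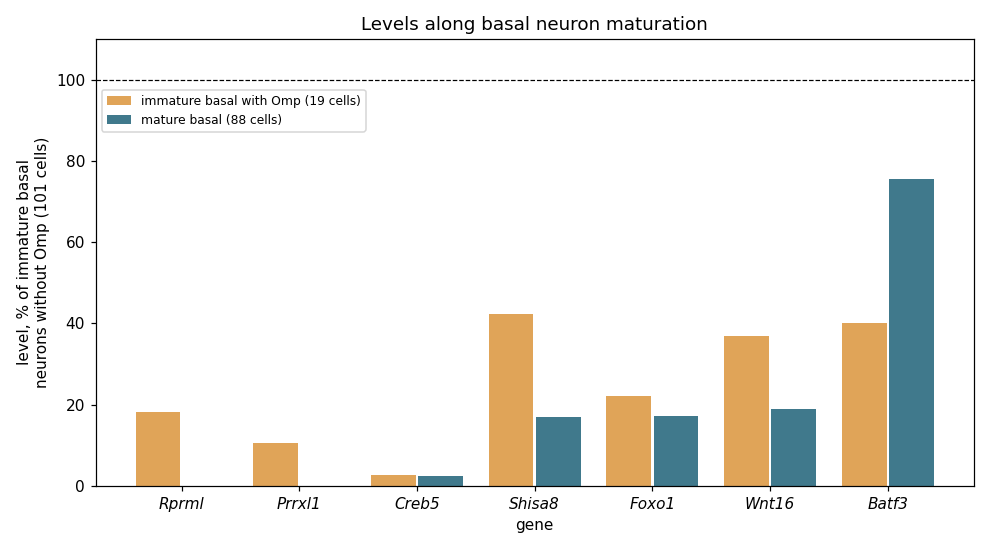
Bars give the level of each gene as a percentage of its CPM in immature basal neurons without *Omp* (dashed line at 100%), in the 19 immature basal neurons with *Omp* and in the 88 mature basal neurons, with both libraries summed and no error drawn. *Rprml* and *Prrxl1* are at 0% in mature cells, *Shisa8* at 17.0% and *Batf3* at 75.4%.

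Mature basal VSNs divide by the V2R co-receptor they use, and the 3 members with enough UMIs did not pass the test between cells with more *Vmn2r1* (19 and 26 cells) and cells with more *Vmn2r2* (24 and 17 cells). *Batf3* had 12 and 12 UMIs in *Vmn2r1* cells and 20 and 20 in *Vmn2r2* cells, a log2 difference of -0.66 ± 0.37 (edgeR adjusted p = 0.758). *Shisa8* had 8 and 14 against 18 and 19 (-0.69 ± 0.38, adjusted p = 0.747). *Foxo1* had 8 and 12 against 12 and 9 (0.01 ± 0.43, adjusted p = 0.995). In this contrast 0.216% of 8782 genes were called higher and 0.490% lower in *Vmn2r1* cells, 0.706% in all. The standard errors leave a difference of the size seen for *Batf3* and *Shisa8* undetectable at this depth.

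Within single immature basal cells the genes were often seen together. A median of 3 of the 7 genes had a UMI in a cell, 68 of 120 cells had at least 3, and 7 cells had none. The medians were 1 in immature apical, 1 in mature basal, 0 in mature apical and 0.5 in precursor cells. The genes had stood out in immature basal cells, so a higher number there than in immature apical cells follows from their choice. Thinning to 5000 UMIs (leaving out 4 immature basal and 23 immature apical cells) brought the medians to 2 in immature basal cells and 0 in the other groups. *Prrxl1* and *Creb5* shared 37 cells, where 23.4 would be shared if they were unrelated, which is 67.3% of the 55 *Prrxl1*+ and 72.5% of the 51 *Creb5*+ cells. *Creb5* and *Foxo1* shared 40 cells (27.2 if unrelated) and *Rprml* and *Creb5* 25 cells (15.7). *Shisa8*, seen in 83 cells, shared about as many as unrelated genes would with *Prrxl1* (39 and 38.04), *Creb5* (35 and 35.3) and *Foxo1* (44 and 44.3). Deeper cells show more genes of any kind, and these counts are not corrected for it.

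**Figure D3:**
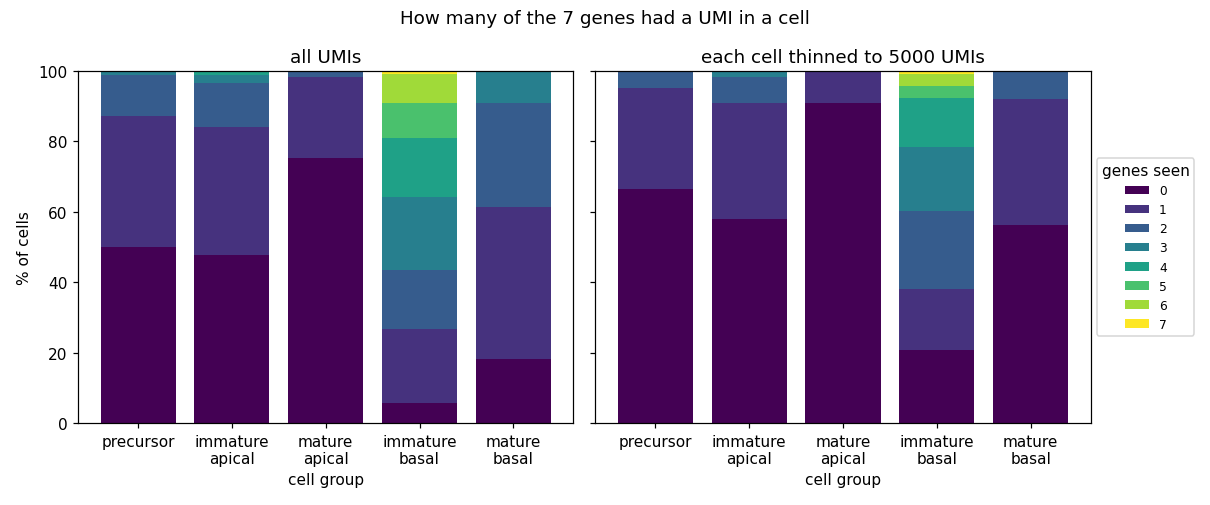
Stacked bars show the percentage of cells in each group in which 0 to 7 of the genes had at least 1 UMI, with all UMIs on the left and with cells thinned to 5000 UMIs on the right. The 120 immature basal cells have a median of 3 genes and 56.7% of them show at least 3, against 3.46% of immature apical cells. This difference follows from the choice of the genes.

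Outside neurons the genes differed in how widely they were seen. *Rprml*, *Prrxl1* and *Shisa8* had 4, 5 and 4 UMIs over all 6659 named non-neuronal cells, and 4 cells (0.0601%) with a UMI each, at a median depth of 5477 UMIs. In immature basal neurons those shares were 30.8%, 45.8% and 69.2%. The low counts did not cover every class under other filters or the unnamed clusters. With a mitochondrial limit of 10%, a deeper ciliated-like cluster (105 cells, median 10007 UMIs) held 20 *Shisa8* UMIs (15.1 CPM, above the 12.2 CPM of immature apical neurons at that limit), and 239 vascular smooth muscle-like cells held 8 *Prrxl1* UMIs (3.86 CPM). The unnamed cluster led by *Lrmp* had *Shisa8* at 9.63 CPM and *Prrxl1* at 7.70 CPM. *Shisa8* was at 7.56 CPM in the one led by *Vmn2r76* and 6.86 CPM in the one led by *Vmn1r70*. Both of the latter clusters are led by vomeronasal receptor genes, and the *Vmn1r70* cluster also had *Omp* raised. They are not shown to be non-neuronal. *Batf3* was highest of all groups in dendritic-like cells, at 93.5 and 95.8 CPM in the libraries, with 43.6% of 365 cells showing it, and reached 52.5 and 47.2 CPM in macrophage-like and 49.0 and 77.2 CPM in monocyte-like cells. Its 43.3 and 45.0 CPM in mature basal neurons lay just below these values and its 45.6 and 58.2 CPM in immature basal neurons around them, while T cell-like, ciliated-like and olfactory ensheathing-like cells had 0 UMIs.

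*Foxo1* was widespread. It reached 102 and 112 CPM in endothelial-like cells and 87.7 and 73.7 CPM in olfactory ensheathing-like cells, the glia that wrap VSN axons, below the 116 and 155 CPM of immature basal neurons. *Creb5* was counted in neutrophil-like cells at 58.9 and 87.8 CPM and in olfactory ensheathing-like cells at 41.5 and 66.4 CPM. Macrophage-like cells had it at 37.2 and 48.8 CPM and ciliated-like cells at 0 (upper 95% limit 8.32 CPM). The unnamed cluster led by *Meg3* held it at 66.8 and 116 CPM. This cluster had *Fezf2* and *Cyp2a5* raised, which the paper used to annotate sustentacular cells, a non-neuronal type. A name needed at least 3 raised markers, so the cluster stayed unnamed. No named class is sustentacular, and the identity of this cluster was not tested. In it 53.5% of 284 cells had a *Creb5* UMI, against 42.5% of immature basal neurons. In thinned cells these shares were 32.3% and 32.8%. *Wnt16* had 29 UMIs in fibroblast-like cells (8.61 and 3.59 CPM), 2 in basal cell-like cells and 0 in the other named non-neuronal classes. The smallest of these, 49 B cell-like cells, leaves an upper 95% limit of 18.7 CPM. Over 18 groups of named cells, which leave out the unnamed clusters, 6 of the 7 genes were highest in immature basal neurons with both libraries summed. The exception was *Batf3*. The genes had stood out in those neurons to begin with, so nothing is read from this count. In library 1 alone *Creb5* was highest in immature apical neurons.

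**Figure D4:**
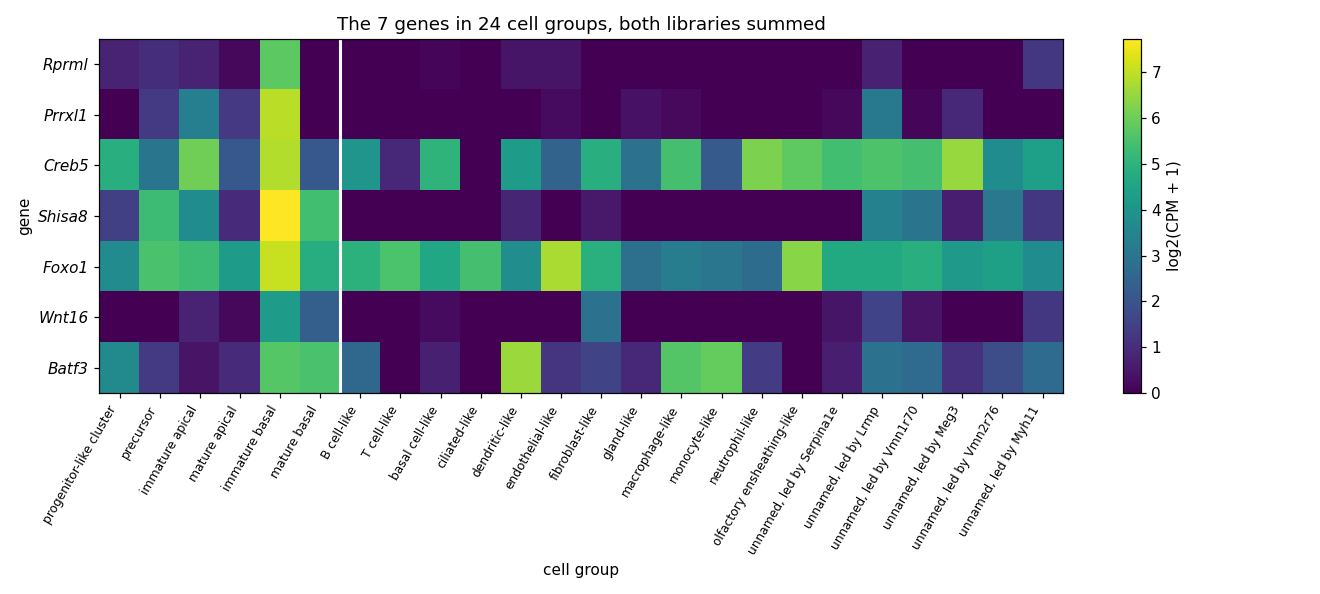
Each column is a cell group (the neuronal lineage left of the white line, named non-neuronal classes and unnamed clusters right of it), each row a gene, and the colour is log2(CPM + 1) with both libraries summed. *Rprml*, *Prrxl1* and *Shisa8* are nearly dark in the named non-neuronal classes, *Shisa8* and *Prrxl1* show weakly in unnamed clusters (up to 9.63 and 7.70 CPM), *Batf3* also lights up in dendritic-like, macrophage-like and monocyte-like cells, and *Foxo1* and *Creb5* are present in most groups.

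Close relatives did not share the basal against apical pattern of the members, although *Rprm* and *Foxo6* were also lower in mature than in immature basal neurons. *Rprm*, the other Reprimo gene, peaked a stage earlier than *Rprml*, at 266 and 280 CPM in precursors, and had 34 and 15 UMIs in immature basal (49.96 and 29.1 CPM) against 117 and 64 in immature apical cells (67.5 and 50.4 CPM). Like *Rprml* it was at 0 in mature basal neurons, at least 20.4-fold lower than in immature ones (edgeR adjusted p = 0.000943). In that contrast *Rprm* passed the filter on low counts only through the immature group. *Batf* and *Batf2* had 0 UMIs in basal neurons of both stages and both libraries, where *Batf3* had 30 to 34. Of the 11 other genes of the BATF list, which holds the JUN, FOS and IRF partners, none was called higher in a tested contrast. Of these *Jund* was called lower in mature basal than in apical neurons (log2 fold change -0.40, adjusted p = 0.0301), and *Jun* lower in mature than in immature basal neurons (-1.32, adjusted p = 0.00126). *Prrx1* and *Prrx2* had between 0 and 2 UMIs per library in basal neurons. *Atf2* (63.2 and 77.6 CPM in immature basal, 76.2 and 70.9 CPM in immature apical) and *Atf7* were present on both branches, and edgeR and DESeq2 each called 0 of the 12 other ATF2/CREB genes between basal and apical neurons of either stage or between stages, with 2 to 3 at an unadjusted p under 0.05 in each contrast. Of all genes edgeR called 2.37% between immature types, 8.79% between mature types and 25.7% between stages.

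Among AMPA receptor partners, *Shisa8* was the member of its family that marked basal neurons, since *Shisa6* and *Shisa9* had 0 UMIs in the gated neurons and *Shisa7* was at 10.8 and 10.6 CPM in mature basal and 10.1 and 13.2 CPM in mature apical cells. Of the 15 other genes of this list 6 were tested in each contrast of stage or type. *Cacng5*, an auxiliary subunit gene, had 23 and 15 UMIs in mature basal against 22 and 20 in mature apical neurons and was called higher (2.30 ± 0.34, adjusted p = 0.00848). With maturation of basal neurons *Cacng5* (2.60, adjusted p = 0.00960) and *Cacng2* (2.42, adjusted p = 0.000578) rose while *Cnih2* (-3.84, adjusted p = 5.50e-05) and *Cacng4* (0 UMIs left, at least 32.5-fold lower, adjusted p = 0.000484) fell, so auxiliary subunits of the same receptor moved in both directions. *Cacng4* passed the filter on low counts only through the immature group. The list median was 1.17 on the log2 scale, where the median of all genes tested was -0.01.

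The other Wnt signalling genes are given by their counts. No other Wnt ligand of 18 reached 10 UMIs in more than 1 contrast, *Wnt4* having 0 and 4 UMIs in immature basal against 2 and 11 in immature apical cells and *Wnt5a* 0 and 3 against 10 and 5 in the mature types. None of the receptors tested, 7 of 15 between types and 4 between stages, was called. Of the inhibitors *Nkd1* was called lower with maturation (9 and 6 UMIs to 0, edgeR adjusted p = 0.00947). It passed the filter on low counts only through the immature group. Of the downstream genes *Bcl9*, a beta-catenin cofactor (-3.20, edgeR adjusted p = 0.00281), and *Ctnnb1*, beta-catenin itself (-0.70, edgeR adjusted p = 0.0454), were lower. Between mature basal and apical neurons edgeR called 0 of 7 receptors (2 at an unadjusted p under 0.05, 0 by DESeq2), 0 of 5 inhibitors (2 unadjusted, 1 by DESeq2) and 0 of 9 downstream genes (0 and 0), where 8.79% of all genes were called, so lists of this size would hold few calls in any case.

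Of the other FoxO factors, *Foxo3*, *Foxo4* and *Foxo6* were not called between types, and *Foxo6* was lower in mature than in immature basal neurons (26 and 22 against 61 and 44 UMIs, log2 fold change -1.39, adjusted p = 0.00465). Of the 14 genes upstream of FoxO, *Igf1r*, the IGF1 receptor gene, was called lower in mature basal than apical cells (-0.63, adjusted p = 0.0459), and *Pik3ca* (-1.34, adjusted p = 0.0307) and *Pik3cb* (-1.16, adjusted p = 0.0483), which encode PI3K catalytic subunits, were lower with maturation, calls that DESeq2 did not make. Of 13 genes tested that FoxO factors are known to activate, 4 were lower in mature than in immature basal neurons (2 of the list by DESeq2), *Cdkn1b* (-2.32, adjusted p = 8.19e-05), *Txnip* (-1.91, adjusted p = 0.00404), *Ccng2* (-2.15, adjusted p = 0.0145) and *Sesn3* (-0.94, adjusted p = 0.0480), 0 were higher where 12% of all genes were called lower and 13.7% higher, and the median was -0.57 against -0.01 for all genes. Between the mature types *Sesn3*, a stress-induced regulator of TORC1, was higher in basal cells (1.21, adjusted p = 0.0311) and the cell cycle inhibitor gene *Cdkn1b* lower (-1.62, adjusted p = 0.000962). In immature cells *Cdkn1a*, which encodes p21, was higher in basal cells (918 and 551 UMIs against 1221 and 781, 0.94, adjusted p = 0.0193) and *Gadd45a* lower (-1.02, adjusted p = 0.0451).

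The genes whose levels ran most alike with each member over 24 cell groups, by Pearson correlation of log2(CPM + 1) among 14495 genes, were chosen by that measure alone, and the groups share libraries and differ in depth. *Rprml* ran with the receptor genes *Olfr115* (r = 0.953), *Vmn2r80* and *Vmn2r95*, and *Prrxl1* with the noncoding *Gm10845* (0.956), the antisense-annotated *Gm15691* and *Vmn2r94*, sets that were all highest in immature basal neurons. *Shisa8* ran with *Cnpy1* (0.923), *Asphd2* and *Gnao1*, and *Wnt16* with *Mab21l2* (0.848), *Dio3* and *Sphkap*. *Batf3* ran with *Tep1* (0.773), *Erlin1* and *Lactb*, high in dendritic-like, monocyte-like or mature basal cells. *Foxo1* (*Dtx3*, 0.804, *Ankib1* and *Fto*) and *Creb5* (*Marcksl1*, 0.648, *Pank3* and *Ccdc84*) had partners spread over neurons and other cells. Receptor genes of the V1R and V2R families have near-identical copies, and reads shared between copies make their counts uncertain.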

How the data were processed

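The authors made the libraries with a 10x droplet kit and, per the submitters' processing notes, used bcl2fastq, Cell Ranger 4 and the mm10 genome. The deposited values are raw UMI counts for each gene and barcode, with 108005626 and 95442231 UMIs in the 2 libraries, and no other column of sample values was left unused (0). The sources used here do not say whether depth was equalised between libraries. The authors' notes also name Seurat 3.2.3.

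Genes were kept for the cell filter when seen in at least 3 barcodes, and a cell needed 200 to 9000 genes and a mitochondrial share of UMIs of up to 5%. Clustering used Seurat 5.3.0 (2000 variable genes without the 7 members, 30 components, resolution 0.8) and gave 32 clusters. A class name ending in "-like" needed at least 3 fixed markers raised 4-fold, and 6 clusters stayed unnamed. Immature cells had at least 2 *Gap43* UMIs and more of them than *Omp*, mature cells the reverse. Basal cells had at least 2 UMIs of *Tfap2e* and *Gnao1* and at least 2 times those of *Meis2* and *Gnai2*, apical cells the reverse. Precursors had at least 2 UMIs of *Neurog1* and *Neurod1* and more than of *Gap43*. Scrublet marked 113 and 90 cells as doublets, which stayed in and were left out as an alternative.

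UMIs were summed per group and library, and genes with at least 10 UMIs were tested between groups, 2 libraries against 2, by edgeR 4.0.16 (quasi-likelihood, TMM) with Benjamini-Hochberg adjustment at 0.05 over all genes tested. Tests are two-sided. Between stages the members' p-values are not given, since the immature cells that chose them enter that test. DESeq2 1.42.0 was an alternative. Standard errors are the log2 fold change over the root of its F statistic. CPM are per 1000000 UMIs of the group, and levels are not compared between genes, since gene length was not corrected for. Intervals (exact Poisson or Clopper-Pearson, 95%) and limits at 0 (3 counts over the group) cover counting error only. Groups with the same number come from 1 library, which pairs them, although the correlation of their deviations was only 0.0215 to 0.108. Sampling noise alone does not cover the difference between library counts (chi-square per degree of freedom 2.19 to 4.97). On simulated counts with 200 changed genes, edgeR found 56% of log2 changes of 2 and 92% of 3 between mature types (12604 genes), and 58% and 96% between stages (10544 genes).

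The 7 members and the gene lists were chosen with earlier results of these data known. Genes named beside the members are the listed genes that passed a test, the closest relatives of each member, the cell markers and the 3 genes most like each member among those reaching 10 CPM. *Olfr115* and the other genes most like a member were taken by rank alone. Promoter windows are 250 bases, compared with 32851 in RefSeq. Of the gene identifiers, 32235 of 32285 matched the annotation used.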

Additional observations from a re-analysis of the deposited data

How the results depend on the processing

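Besides 13 alternatives, 3 were chosen after seeing the data: the deep unnamed cluster led by *Vmn1r70* counted as neurons, only cells over 5% and up to 10% mitochondrial UMIs, and immature cells without precursors. The number of genes called between mature basal and apical neurons was 1108, and it became 2529 with the replicate block (library as a term, since same-numbered sums share a library), 2158 with no filter on low counts, 519 with thinned cells, 193 in the 5% to 10% cells and 1960 with the deep cluster. Between stages it was 2714, and 1307 with DESeq2, 1711 with thinned cells and 164 in the 5% to 10% cells. Between immature basal and apical neurons it was 283, and 875 with the replicate block, 851 with no filter and 55 in the 5% to 10% cells. Between *Vmn2r1* and *Vmn2r2* cells it was 62, and 268 with the block, 200 with no filter, 30 with thinned cells and 29 with the deep cluster, and it was not run in the 5% to 10% cells, of which a sum held under 10. The block changed the call of no member between mature types or between *Vmn2r1* and *Vmn2r2* cells. The number of members highest in immature basal neurons, among groups of named cells, ranged from 5 to 6 when a library was left out. *Creb5* turned between mature types to -0.0015 without TMM, -1.29 without replicate 2 (0.88 without replicate 1), -0.21 in the 5% to 10% cells and -1.78 with the deep cluster. *Batf3* turned between stages to 0.827 in the 5% to 10% cells and 0.0285 with *Tfap2e* and *Meis2* alone as identity, and *Foxo1* between *Vmn2r1* and *Vmn2r2* cells to -0.0048 with the block, -0.0194 without replicate 1 (0.0108 without replicate 2) and -0.23 with the deep cluster. The cause was not tested. These are 4 of 69 of the members' values between mature types, 2 of 110 between stages and 3 of 42 between *Vmn2r1* and *Vmn2r2* cells. Between immature types 0 of 109 turned and 30 moved by more than the spread between libraries. Without a library no residual spread is left, so those fits give values and no test. Depth limits *Wnt16*, *Rprml* and *Prrxl1* in mature cells, where counts were 0 to 6 UMIs per library.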
